A study of Mus musculus with 30 samples.

Results

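The 10 genes described here encode proteins made by neurons and neighbouring cells after activity or growth signals: the synaptic effectors Arc, Homer1 and Nptx2, the growth-arrest gene Gadd45b, the nuclear early gene Ier2, the MAP kinase phosphatases Dusp1, Dusp4, Dusp5 and Dusp6, and the matricellular gene Ccn1. They were chosen by name, and their Ensembl identifiers were found in the deposited table, so the members are 10 of its 18240 genes. All 10 had a mean of at least 10 normalized counts over the libraries and entered the tests. The study profiled prefrontal cortex of male and female C57BL/6J mice at postnatal day 40 by bulk RNA sequencing. HT mice, heterozygous for a mutation of Adnp, were given fluoxetine, a serotonin reuptake inhibitor (4 female and 4 male libraries), lithium, a mood stabilizer (3 female and 4 male), or vehicle (4 female and 3 male). WT mice, with an intact Adnp, were given vehicle (4 female and 4 male), and no WT libraries of drug-treated mice are among the 30 libraries. The sources used here do not state dose, route or duration, describe the mutant allele, or say that replicates are separate mice. P-values therefore cover only the spread between libraries, which may be technical.

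Calcium entry and growth factor receptors switch on the ERK branch of the MAP kinase cascade, which acts with CREB and serum response factor to transcribe these genes within minutes to hours. Arc, Homer1 and Nptx2 proteins then act at synapses, where Arc promotes removal of AMPA receptors, the short form of Homer1 uncouples metabotropic glutamate receptors from their scaffold, and Nptx2 clusters AMPA receptors from outside the cell. The Dusp phosphatases close the loop by removing phosphate from MAP kinases, each with its own preference for ERK, p38 or JNK and for nucleus or cytoplasm.

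Depth was 23771758 to 34307061 reads per library, and read counts divided by each library's size factor are called normalized counts here. Adnp itself had 2076 to 2491 normalized counts in HT vehicle (mean 2251) and 1703 to 2228 in WT vehicle libraries (mean 1898), so its own count was not lower in mice labelled HT. Gm20716, an annotated gene model that starts with Adnp and runs on into its neighbour, had 1284 to 1545 in HT vehicle and 2167 to 2622 in WT vehicle libraries, without overlap. Their sum was 3404 to 3887 in the 22 HT libraries, against 4226 to 4433 in the 8 WT vehicle libraries, again without overlap. Because the pair overlap, the split of reads between them is uncertain, and groups are named by their labels throughout. The defining markers of cortical excitatory neurons, such as Slc17a7 with 33543 to 55735 normalized counts, were present in every library. Markers of neighbouring tissue varied widely: the summed count of 8 olfactory bulb markers was 607 to 8877 in HT fluoxetine, 957 to 17950 in HT lithium, 687 to 15381 in HT vehicle and 504 to 7388 in WT vehicle libraries. The sum of 9 striatal neuron markers was 4671 to 37320 in HT fluoxetine, 4599 to 13784 in HT lithium, 4749 to 23112 in HT vehicle and 4621 to 21536 in WT vehicle libraries. HT lithium male 4 and HT vehicle female 1 held the highest olfactory bulb sums, and results are also given without them.

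Under lithium 3 of the 10 genes, Dusp1, Ier2 and Ccn1, rose in HT mice at an adjusted p under 0.05 by limma with Benjamini-Hochberg adjustment over 16824 genes, while 0.0892% of all genes were called higher in the same comparison. Of the 10 log2 fold changes, 8 were positive, with a median of 0.33 against -0.00 over all genes. Fluoxetine in HT mice called none of the 10, beside 0.0357% of all genes, although all 10 fold changes were positive with a median of 0.22 against -0.00 over all genes. At an unadjusted p under 0.05, limma found 6 of the 10 genes and 442 of all genes for fluoxetine, and 7 of the 10 and 962 of all genes for lithium. On reads recovered from the same table, DESeq2 called Arc, Dusp1 and Ccn1 for fluoxetine, and edgeR called none of the 10. The share of all genes called by DESeq2 is not given here, and the 0.0357% is the share by limma. The genotype comparison in vehicle-treated mice called none of the 10, beside 0.731% of all genes called in either direction, and had 1 of the 10 at an unadjusted p under 0.05 by limma, as against 1111 of all genes. Both drug comparisons share the 7 HT vehicle libraries, so their fold changes are not independent of each other.

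**Figure D1:**
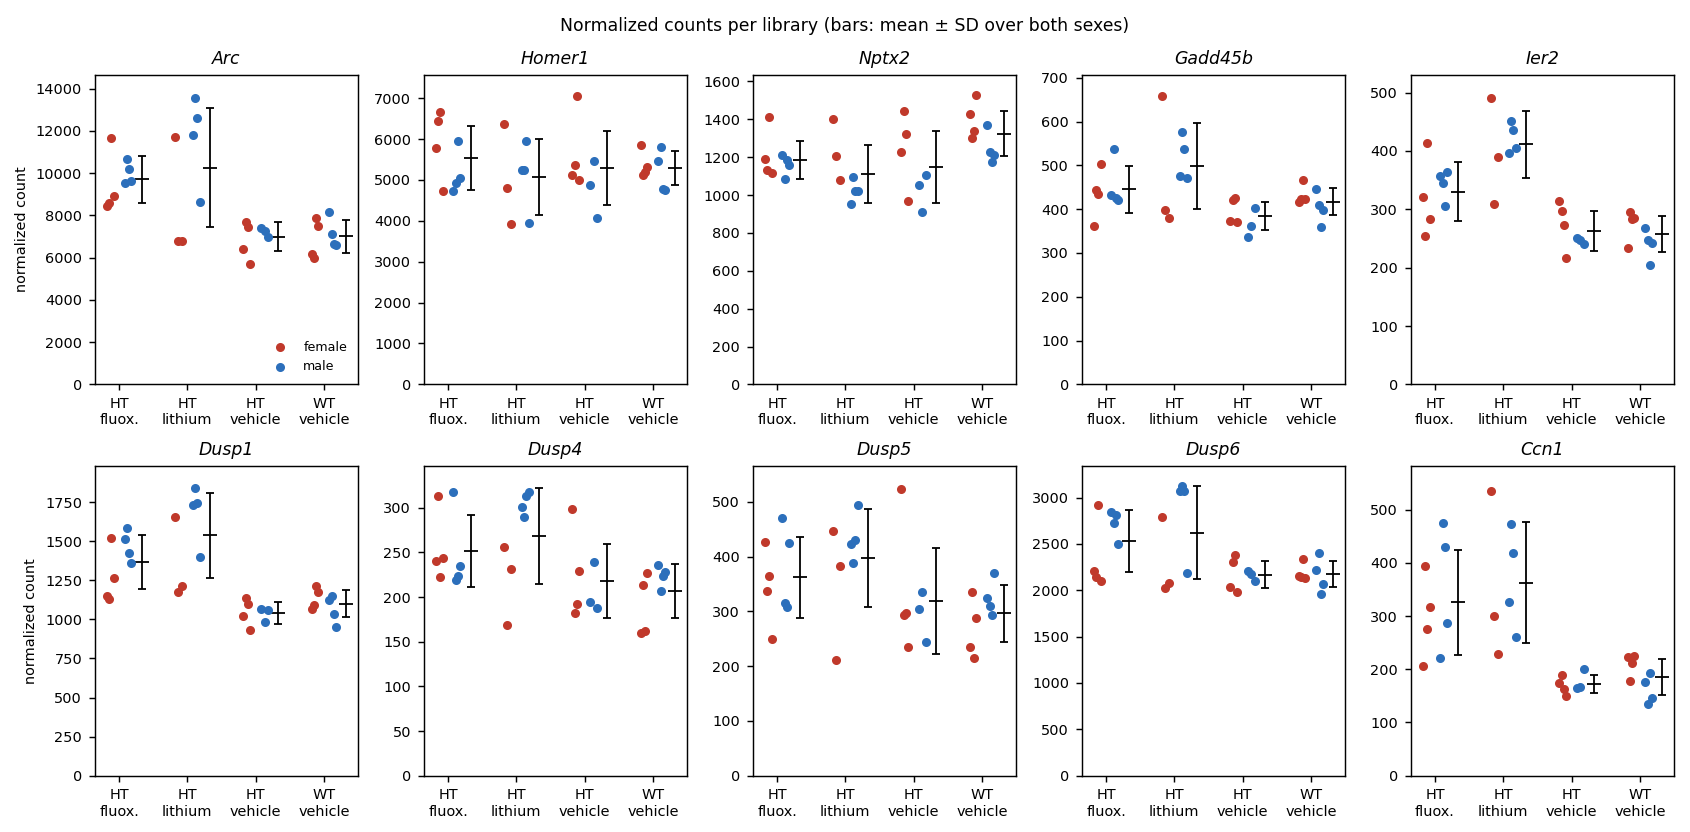
Normalized counts of the 10 genes in each of the 30 libraries, by genotype and treatment (x axis), with females in red and males in blue; black bars give the mean ± SD over both sexes. For Ccn1 all 8 HT fluoxetine and all 7 HT lithium points lie above the highest HT vehicle point at 200 normalized counts, whereas the Homer1 groups overlap throughout.

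Arc, which encodes the cytoskeleton-associated protein that internalizes AMPA receptors, lies on chromosome 15 at 74669083 to 74672570 on the minus strand (GRCm38). Arc was the most abundant of the 10 per kilobase of exon, with 2775 normalized counts per kilobase over the 30 libraries. Its lowest, median and highest normalized counts were 8439, 9565 and 11649 in HT fluoxetine, 6765, 11690 and 13575 in HT lithium, 5715, 7248 and 7663 in HT vehicle, and 5969, 6887 and 8155 in WT vehicle libraries. All 8 HT fluoxetine libraries lay above both vehicle groups, whereas the HT lithium libraries fell apart, with females 2 and 3 at 6765 and 6772, within the vehicle range, and the other 5 at 8619 or more. Among all genes, 0.0476% were higher without overlap in HT fluoxetine than in HT vehicle. The log2 fold change against HT vehicle was 0.47 for fluoxetine (SE 0.11, adjusted p = 0.341) and 0.47 for lithium (SE 0.12, adjusted p = 0.343), so neither passed the threshold by limma, while DESeq2 gave adjusted p = 0.0278 for fluoxetine and 0.013 for lithium. Against WT vehicle, Arc rose in both HT fluoxetine (log2 fold change 0.47, adjusted p = 0.0221) and HT lithium (0.47, adjusted p = 0.0256) by limma. The HT fluoxetine call was lost, with adjusted p up to 0.053, when HT fluoxetine female 3, WT vehicle female 1 or WT vehicle male 4 was left out. The HT lithium call was lost, with adjusted p up to 0.0849, when HT lithium female 1, HT lithium male 3, WT vehicle female 1, WT vehicle male 3 or WT vehicle male 4 was left out. It was also lost with only the groups compared in the fit (adjusted p = 0.124 by limma).

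Homer1, the scaffold that links group I metabotropic glutamate receptors to Shank and internal calcium stores, lies on chromosome 13 at 93299635 to 93405129 on the plus strand. Its counts pool the inducible short form and the constitutive long forms, which the gene-level table does not separate. Lowest, median and highest normalized counts were 4723, 5415 and 6668 in HT fluoxetine, 3925, 5240 and 6378 in HT lithium, 4081, 5118 and 7060 in HT vehicle, and 4758, 5249 and 5854 in WT vehicle libraries. All 4 groups overlapped, and the lowest and highest libraries, HT lithium female 3 and HT vehicle female 3, were both from HT mice. Against HT vehicle the log2 fold change was 0.09 for fluoxetine (95% interval -0.13 to 0.30) and -0.05 for lithium (95% interval -0.27 to 0.17).

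Nptx2, the secreted neuronal pentraxin that gathers AMPA receptors at synapses onto interneurons, lies on chromosome 5 at 144545902 to 144557478 on the plus strand. The lowest, median and highest values were 1086, 1172 and 1413 in HT fluoxetine, 954, 1080 and 1404 in HT lithium, 912, 1106 and 1442 in HT vehicle, and 1175, 1321 and 1528 in WT vehicle libraries. The WT vehicle libraries sat highest as a group, but they overlapped each HT group. Nptx2 had the smallest p of the 10 genes in the genotype comparison, with 1148 ± 192 normalized counts in HT vehicle and 1323 ± 119 in WT vehicle libraries (SD, n = 7 and 8), a log2 fold change of -0.24 (SE 0.07) and an adjusted p of 0.175 by limma. The sum of 8 excitatory cortical neuron markers was 51023 to 67904 in HT vehicle and 57811 to 74500 in WT vehicle libraries, and over the 30 libraries Nptx2 had r = 0.39 with it and -0.63 with the sum of 11 endothelial and mural markers; their part in the Nptx2 values was not tested. Nptx2 did not differ detectably between drug and vehicle within HT mice, with 95% intervals of -0.07 to 0.23 for fluoxetine and -0.15 to 0.15 for lithium. Set against WT vehicle instead, the log2 fold change was -0.16 in HT fluoxetine (adjusted p = 0.35) and -0.24 in HT lithium (adjusted p = 0.0815). The HT lithium difference was called by limma without HT lithium female 1 (adjusted p = 0.0422) and by DESeq2 with all libraries (adjusted p = 0.0476).

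Gadd45b, which couples activity to DNA demethylation and to p38 signalling, lies on chromosome 10 at 80930073 to 80932204 on the plus strand. Lowest, median and highest normalized counts were 362, 434 and 537 in HT fluoxetine, 381, 476 and 658 in HT lithium, 337, 373 and 424 in HT vehicle, and 358, 419 and 465 in WT vehicle libraries. HT lithium female 1 held the highest count of all libraries, and the groups overlapped. The log2 fold change was 0.36 for lithium (SE 0.10, adjusted p = 0.471) and 0.22 for fluoxetine (SE 0.09, adjusted p = 1), neither called by limma.

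Ier2, a small nuclear early-response gene on chromosome 8 at 84661331 to 84662852, minus strand, rose under lithium. From lowest through median to highest, normalized counts were 253, 333 and 413 in HT fluoxetine, 310, 406 and 491 in HT lithium, 217, 250 and 315 in HT vehicle, and 205, 258 and 295 in WT vehicle libraries. Every HT lithium library was above every WT vehicle library, a separation that 0.493% of all genes showed in that direction, and HT lithium female 2 alone fell within the HT vehicle range. The mean was 412 ± 57 in HT lithium and 263 ± 34 in HT vehicle libraries (SD, n = 7 each), a log2 fold change of 0.65 (SE 0.10, adjusted p = 0.00238 by limma). The call held when each of the 14 libraries was left out in turn, with adjusted p up to 0.0211. For fluoxetine the log2 fold change was 0.34 (SE 0.10, adjusted p = 1). Against WT vehicle, the HT fluoxetine difference of 0.35 (SE 0.09) was just outside the threshold by limma (adjusted p = 0.0533). It was called by DESeq2 (adjusted p = 0.0196) and by edgeR (adjusted p = 0.0475), but not by edgeR with median-of-ratios size factors. Limma called it without HT fluoxetine female 2 (adjusted p = 0.0249) or without both HT lithium male 4 and HT vehicle female 1 (adjusted p = 0.0491). Of 11 alternatives 8 did not call it, nor did 15 of the 16 omissions of 1 library. Ier2 was the 1 gene of the 10 with an unadjusted p under 0.05 between the drugs, at a log2 difference of -0.31 for fluoxetine minus lithium (95% interval -0.51 to -0.11, adjusted p = 0.574).

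Dusp1, the nuclear phosphatase that acts on p38, JNK and ERK, lies on chromosome 17 at 26505590 to 26562128 on the minus strand. This annotated span shares 11 exonic bases with Ergic1 on the opposite strand, which averaged 3536 normalized counts. The RefSeq start site used for the Dusp1 promoter below lies inside the span, not at its end. Lowest, median and highest normalized counts were 1130, 1390 and 1588 in HT fluoxetine, 1176, 1653 and 1843 in HT lithium, 933, 1060 and 1139 in HT vehicle, and 954, 1109 and 1215 in WT vehicle libraries. All 7 HT lithium libraries were above all 7 HT vehicle libraries, a separation shown by 0.0713% of all genes, and 1 HT fluoxetine library, female 2, fell within the HT vehicle range. Means were 1370 ± 174 in HT fluoxetine, 1538 ± 272 in HT lithium and 1044 ± 70.2 in HT vehicle libraries (SD, n = 8, 7 and 7). Dusp1 rose under lithium by 0.52 on the log2 scale (SE 0.08, adjusted p = 0.00156), and that call held without each of the 14 libraries in turn. With only the groups compared in the fit, its adjusted p was 0.0548 by limma and the call was lost. The fluoxetine fold change of 0.39 (SE 0.07) had an adjusted p of 0.0539 by limma, just outside the threshold, and 0.00115 by DESeq2. Against WT vehicle, Dusp1 rose in both HT fluoxetine (log2 fold change 0.31, adjusted p = 0.0238) and HT lithium (0.44, adjusted p = 0.001). The HT fluoxetine call was lost, with adjusted p up to 0.0633, when HT fluoxetine female 3, HT fluoxetine male 1, HT fluoxetine male 2, WT vehicle female 1 or WT vehicle male 4 was left out.

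The promoter of Dusp1 is shown beside those of Ccn1, the other called gene with an entry, and Dusp5, which followed another pattern across libraries. The sequences are the 250 bases before the RefSeq start site (GRCm38.p6), 5′ to 3′ on the gene's strand. Of the 10 genes, 6 had an entry. Capitals mark the CRE core TGACG on either strand, the full CRE TGACGTCA, which contains 2 such cores, and the CArG box bound by serum response factor.
Dusp1, chr17:26508473-26508722, minus strand: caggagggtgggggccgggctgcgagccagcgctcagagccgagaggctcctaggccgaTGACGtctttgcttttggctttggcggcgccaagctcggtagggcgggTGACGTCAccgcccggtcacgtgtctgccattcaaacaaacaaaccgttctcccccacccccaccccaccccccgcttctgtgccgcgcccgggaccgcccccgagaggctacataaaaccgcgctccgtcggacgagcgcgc
Ccn1, chr3:145649986-145650235, minus strand: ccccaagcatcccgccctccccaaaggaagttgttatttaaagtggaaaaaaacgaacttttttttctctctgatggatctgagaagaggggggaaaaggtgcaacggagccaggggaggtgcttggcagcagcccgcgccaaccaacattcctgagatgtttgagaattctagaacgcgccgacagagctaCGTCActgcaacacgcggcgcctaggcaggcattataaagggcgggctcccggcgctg
Dusp5, chr19:53528895-53529144, plus strand: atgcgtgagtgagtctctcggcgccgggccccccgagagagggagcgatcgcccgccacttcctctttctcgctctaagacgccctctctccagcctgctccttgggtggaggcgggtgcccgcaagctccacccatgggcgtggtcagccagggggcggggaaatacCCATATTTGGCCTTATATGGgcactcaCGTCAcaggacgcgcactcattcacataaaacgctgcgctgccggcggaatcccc
The Dusp1 window held 1 full CRE at -143 to -136 and a further core at -191, and full CREs occurred in 1.55% of the 32851 promoters of the same length. The Ccn1 window held 1 core at -58, and cores occurred in 17.8% of all promoters. The Dusp5 window held 2 adjacent CArG boxes at -82 and -72, and a core at -55, with CArG boxes in 1.47% of all promoters. Cores were not limited to called genes, since 1 of the 2 windows of Homer1, which was not called under either drug, held 3, at -56, -40 and -14. The AP-1 letters TGANTCA, searched on both strands and present in 6.75% of all promoters, were not found in the windows of the 6 genes. These matches describe letters in the windows and do not show binding.

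Dusp6, the cytoplasmic ERK-specific phosphatase, lies on chromosome 10 at 99263231 to 99267489 on the plus strand and was the second of the 10 genes per kilobase, at 758 normalized counts. Dusp6 normalized counts (lowest, median and highest) were 2101, 2613 and 2924 in HT fluoxetine, 2025, 2796 and 3124 in HT lithium, 1981, 2172 and 2383 in HT vehicle, and 1957, 2146 and 2403 in WT vehicle libraries. Within lithium, HT females 2 and 3 and male 4 lay at 2025, 2084 and 2183, inside the vehicle range, and the other 4 libraries at 2796 or more. The log2 fold change was 0.21 for fluoxetine (SE 0.08, adjusted p = 1) and 0.23 for lithium (SE 0.08, adjusted p = 0.82). Against WT vehicle, the HT lithium difference of 0.22 (adjusted p = 0.156) was called without HT lithium male 4 (0.29, adjusted p = 0.0388), and without both that library and HT vehicle female 1 (adjusted p = 0.0411).

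Dusp4 and Dusp5 encode nuclear phosphatases induced by ERK signalling, Dusp5 being specific for ERK. Dusp4 lies on chromosome 8 at 34807297 to 34819894, plus strand, and Dusp5 on chromosome 19 at 53529109 to 53542431, plus strand. Lowest, median and highest normalized counts of Dusp4 were 219, 238 and 318 in HT fluoxetine, 168, 290 and 318 in HT lithium, 183, 195 and 299 in HT vehicle, and 160, 219 and 236 in WT vehicle libraries. Those of Dusp5 were 250, 351 and 472 in HT fluoxetine, 212, 424 and 494 in HT lithium, 235, 296 and 523 in HT vehicle, and 215, 302 and 371 in WT vehicle libraries. All groups overlapped for both genes, and the highest Dusp5 count of all came from HT vehicle female 1. Log2 fold changes were 0.22 (SE 0.11) for Dusp4 and 0.21 (SE 0.17) for Dusp5 under fluoxetine, and 0.26 (SE 0.12) and 0.30 (SE 0.17) under lithium, none called by limma. An antisense transcript, AC137853.2, shares 547 exonic bases with Dusp5 and averaged 6.56 normalized counts, and the sources used here do not say how strand was counted.

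The libraries with the most Dusp5 were those with the most olfactory bulb marker RNA. HT fluoxetine male 1, HT lithium male 4 and HT vehicle female 1, which had the highest olfactory bulb sums of their groups at 8877, 17950 and 15381 normalized counts, had the highest Dusp5 and the highest Dusp4 of those groups. WT vehicle female 2, highest of its group at 7388, ranked 2 of 8 for Dusp5 and 5 of 8 for Dusp4. Over the 30 libraries, Pearson's r between the log2 marker sum and log2 Dusp5 was 0.80 (Spearman's rho 0.76), and 0.75 without the 2 libraries farthest from the median sum. For Dusp4 r was 0.63, for Ier2 0.51, for Dusp1 0.22, for Arc 0.15, for Dusp6 0.11 and for Ccn1 0.09. With the sum of 9 striatal neuron markers r was -0.58 for Dusp5, -0.52 for Ier2 and -0.45 for Dusp6. Other marker sums gave values of similar size. Dusp4 had r = 0.67 with meningeal fibroblast, 0.60 with endothelial and mural, 0.58 with astrocyte and -0.58 with excitatory cortical neuron markers, and Dusp5 had 0.68 with astrocyte, 0.63 with meningeal fibroblast and 0.59 with endothelial and mural markers. Ier2 had r = -0.61 with oligodendrocyte precursor and 0.50 with endothelial and mural markers. Dusp6 had -0.55 with oligodendrocyte precursor and -0.53 with inhibitory neuron markers. Dusp1 had -0.46 with oligodendrocyte precursor and 0.43 with endothelial and mural markers. The points share a dissection and a normalization. The part of these tissues and cell types in the Dusp1, Dusp4, Dusp5, Dusp6 and Ier2 values was not tested. Fewer cells of a type and less RNA per cell cannot be told apart in bulk tissue. Without both HT lithium male 4 and HT vehicle female 1, the log2 genotype difference was -0.01 for Dusp4 (0.06 with them) and -0.05 for Dusp5 (0.07 with them), none called, while the lithium calls of Dusp1, Ier2 and Ccn1 held with adjusted p of 0.000941, 0.00275 and 0.0211.

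**Figure D2:**
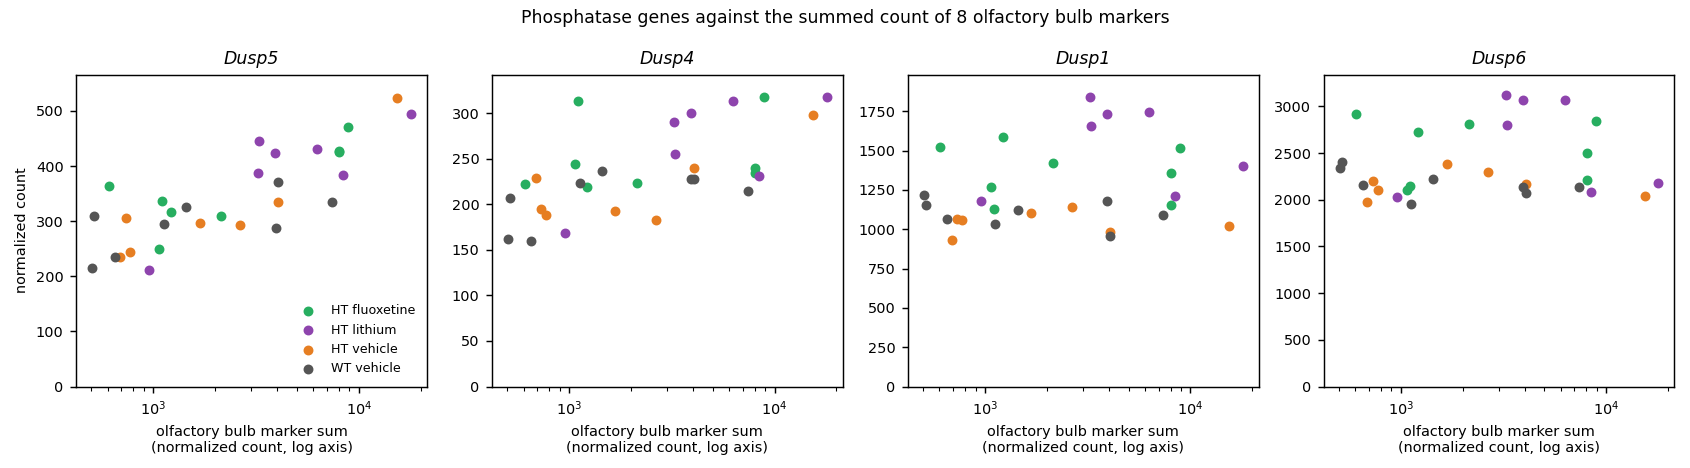
Normalized counts of Dusp5, Dusp4, Dusp1 and Dusp6 (y axes) against the summed normalized count of 8 olfactory bulb markers (x axis, log scale), 1 point per library, coloured by genotype and treatment. Over the 30 libraries r was 0.80 for Dusp5, 0.63 for Dusp4, 0.22 for Dusp1 and 0.11 for Dusp6.

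Ccn1, a secreted matricellular protein made by vascular and other stromal cells and induced through serum response factor and YAP, lies on chromosome 3 at 145646976 to 145649981 on the minus strand and had the largest fold change of the 10 under each drug. Its normalized counts (lowest, median and highest) were 206, 301 and 475 in HT fluoxetine, 229, 326 and 535 in HT lithium, 151, 167 and 200 in HT vehicle, and 134, 185 and 224 in WT vehicle libraries. Every drug-treated library was above every HT vehicle library, as for 0.0476% of all genes under fluoxetine and 0.0713% under lithium. Every HT lithium library was also above every WT vehicle library, as for 0.493% of all genes. Means were 326 ± 98.2 in HT fluoxetine, 363 ± 114 in HT lithium and 172 ± 16.8 in HT vehicle libraries (SD, n = 8, 7 and 7). The SD within each drug group was thus several times that of HT vehicle. As a share of the mean, the SD was 30.2% in HT fluoxetine, 31.5% in HT lithium, 9.73% in HT vehicle and 18.2% in WT vehicle libraries. Ccn1 rose under lithium by 1.0 on the log2 scale (SE 0.18, adjusted p = 0.0196 by limma). That call was lost in 6 of 14 omissions, namely without HT lithium female 1, HT lithium male 2, HT lithium male 3, HT vehicle female 4, HT vehicle male 1 or HT vehicle male 2, with adjusted p up to 0.0842. The lithium call was also lost with only the groups compared in the fit (adjusted p = 0.131 by limma). Under fluoxetine the fold change was 0.86 (SE 0.18, adjusted p = 0.104), called by DESeq2 (adjusted p = 0.000625) but not by edgeR. Against WT vehicle, Ccn1 rose in HT fluoxetine (log2 fold change 0.77, adjusted p = 0.0177) and HT lithium (0.91, adjusted p = 0.00465), and both calls held without each library in turn. The summed count of 11 endothelial and mural markers was 9118 to 10049 in HT fluoxetine, 9089 to 11677 in HT lithium, 8889 to 10105 in HT vehicle and 8455 to 10371 in WT vehicle libraries, with all groups overlapping and r = 0.15 with Ccn1.

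**Figure D3:**
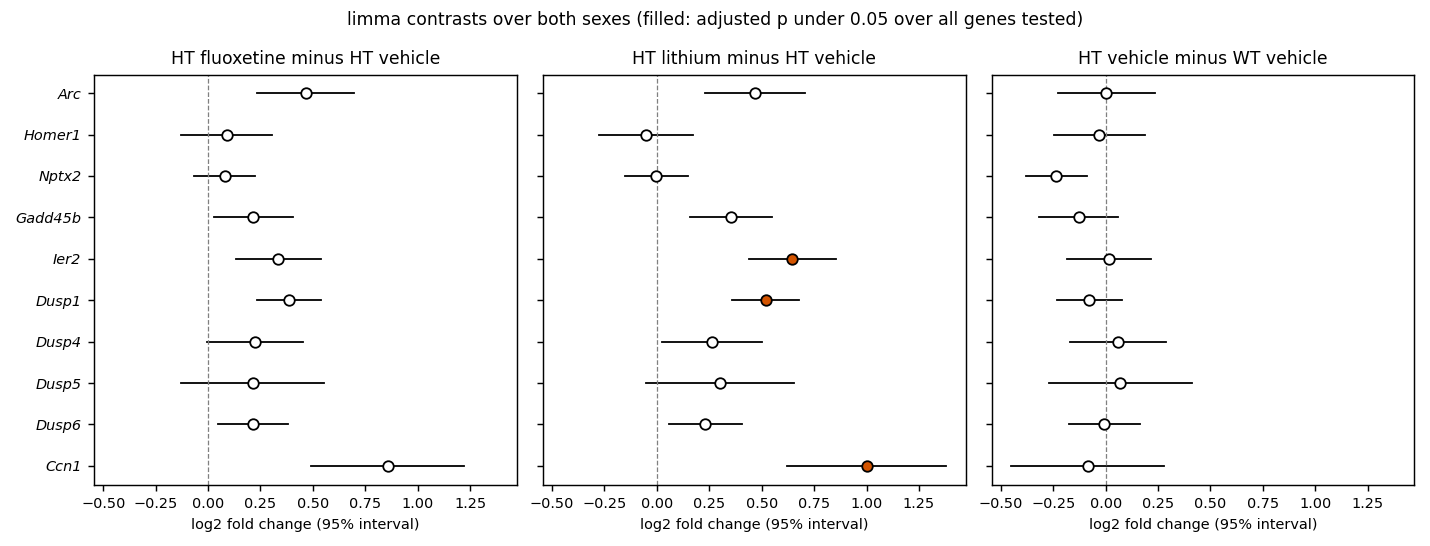
Log2 fold changes with 95% intervals (x axis) of the 10 genes (rows) for HT fluoxetine minus HT vehicle, HT lithium minus HT vehicle, and HT vehicle minus WT vehicle, over both sexes; filled points passed an adjusted p under 0.05 by limma. Filled points are found for Ier2 (0.65), Dusp1 (0.52) and Ccn1 (1.0) under lithium, and every interval but that of Nptx2 (-0.24) includes 0 in the genotype panel.

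Against WT vehicle, 3 of the 10 genes rose in HT fluoxetine (Arc, Dusp1 and Ccn1) and 4 in HT lithium (Arc, Dusp1, Ier2 and Ccn1), where 1.24% and 1.4% of all genes were called higher. None of the 10 was called lower by limma, where 0.25% and 0.577% of all genes were. The groups did not overlap for Arc in HT fluoxetine, as for 0.476% of all genes, and for Ier2 and Ccn1 in HT lithium, as for 0.493%. Genotype and drug cannot be told apart in these comparisons. Direct comparison of the drugs called none of the 10 and none of the 16824 genes by limma, with 1154 genes at an unadjusted p under 0.05. The 95% intervals of fluoxetine minus lithium were -0.23 to 0.23 for Arc, -0.29 to 0.02 for Dusp1 and -0.51 to 0.22 for Ccn1, which include 0, and -0.51 to -0.11 for Ier2, which did not pass after adjustment over all genes.

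The comparisons were then made within each sex. In males lithium raised Dusp1 by 0.69 (SE 0.11, adjusted p = 0.00323) and Ier2 by 0.78 (SE 0.14, adjusted p = 0.0159) on the log2 scale, with 0.0773% of all genes called higher. The Dusp1 call held without each of the 7 libraries in turn, with adjusted p up to 0.0367 by limma. The Ier2 call was lost without HT lithium male 2 or 3 or HT vehicle male 1, 2 or 3, with adjusted p up to 0.108. Fluoxetine called none of the 10 in males, with 0.0178% of all genes called higher. In females it called none of the 10 and none of all genes by limma. Lithium in females called none of the 10, nor any of all genes. Dusp1, Ier2 and Ccn1 were the 3 of the 10 with an unadjusted p under 0.05 by limma, at 0.35, 0.52 and 0.98, beside 597 of all 16824 genes. Genotype in vehicle called none of the 10 in females (0.256% of all genes called in either direction) or males (0.226%), with Nptx2 at -0.19 and -0.29. The female effect minus the male effect was negative for all 10 genes under both drugs, but none of the 10 and none of all genes was called in either test, with 1684 genes at an unadjusted p under 0.05 for lithium and 1002 for fluoxetine. For lithium the largest differences among the 10 were -0.61 for Dusp4 (adjusted p = 0.477) and -0.52 for Dusp5 (adjusted p = 0.557). The 3 HT lithium females were far apart, and female 1 was highest of the 3 in all 10 genes. Olfactory bulb sums were 957 to 8398 in HT lithium females and 3246 to 17950 in HT lithium males. In HT vehicle they were 687 to 15381 in females and 733 to 4056 in males. Striatal neuron marker sums were 4672 to 13784 in HT lithium females and 4599 to 4992 in HT lithium males. In HT vehicle those sums were 4749 to 23112 in females and 4907 to 21364 in males. Other sums did not overlap between HT lithium and HT vehicle males. Oligodendrocyte sums were 75867 to 83887 and 100114 to 122615, and oligodendrocyte precursor sums 4986 to 5128 and 5234 to 5892. Meningeal fibroblast sums were 5645 to 12218 and 4079 to 5508. The remaining marker sums overlapped between these males. The part of any of these sums in the male calls and in the sex differences was not tested.

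**Figure D4:**
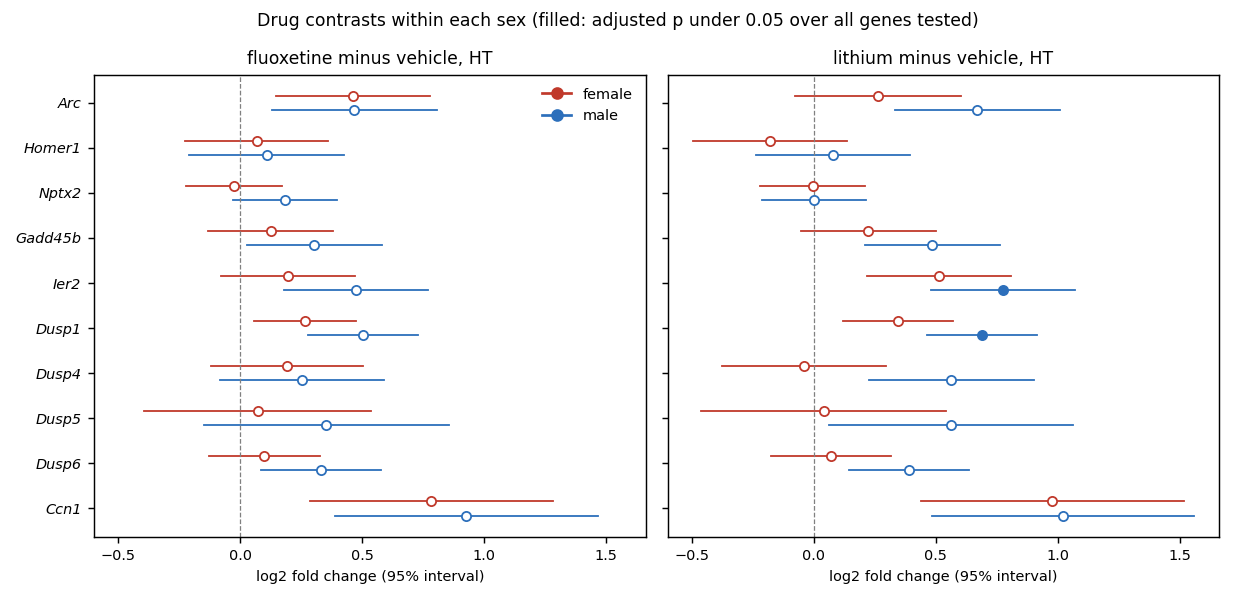
Log2 fold changes with 95% intervals (x axis) of fluoxetine minus vehicle and lithium minus vehicle in HT females (red) and HT males (blue) for the 10 genes (rows); filled points passed an adjusted p under 0.05 by limma. Only Ier2 (0.78) and Dusp1 (0.69) in lithium-treated males are filled, and the female and male intervals overlap for every gene.

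Across libraries the genes moved in sets. Arc, Dusp1 and Dusp6 followed each other, with Pearson's r on the log2 scale over the 30 libraries of 0.93 for Arc and Dusp1, 0.90 for Arc and Dusp6 and 0.90 for Dusp1 and Dusp6. After the mean of each group was taken off, these were 0.92, 0.87 and 0.89. Dusp4 and Dusp5 followed each other (0.80, and 0.70 within groups) but not Arc within groups (-0.07 for Dusp4 and 0.06 for Dusp5). Nptx2 had r = -0.12 with Arc over all libraries and 0.63 within groups. Libraries of 1 group share genotype, treatment and sex, and genes share each library's normalization, so these values are descriptions.

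**Figure D5:**
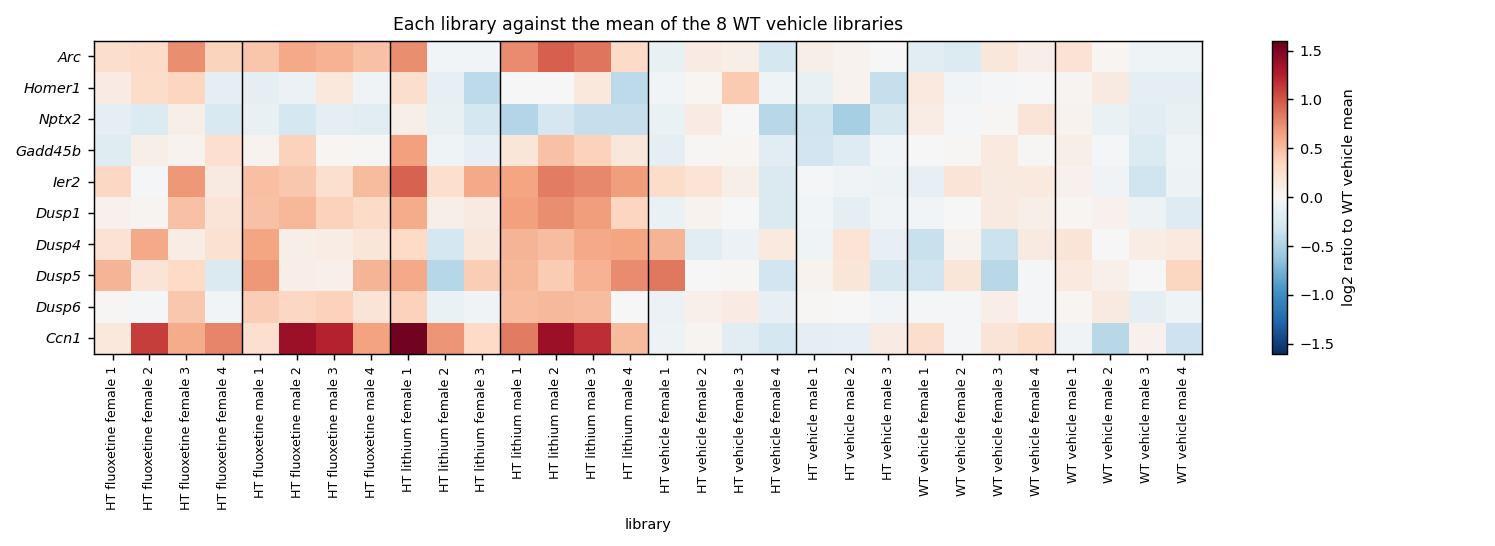
Log2 ratio of each library (columns, by genotype, treatment and sex) to the mean of the 8 WT vehicle libraries for the 10 genes (rows); red is above and blue below that mean. HT lithium female 1 stands out as highest of its 3 libraries in all 10 rows, HT vehicle female 4 is lowest of its 4 in 9 of 10, and Nptx2 is mostly blue in the HT columns.

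The genes most like each member were sought among 12843 genes with a mean of at least 50, by Pearson's r over the 30 libraries. Other members and genes with predicted names were passed over, so those named below are the closest of the remaining genes. Some members were closer still: Dusp1 to Arc (0.93), Arc to Dusp6 (0.90) and Dusp1 to Gadd45b (0.79). For Arc they were Junb (0.93), Egr2 and Egr4, and for Dusp1 Junb (0.92), Egr2 and Nr4a1, all immediate early transcription factors. For Gadd45b they were Egr2 (0.78), Junb and Egr1, for Ier2 Nr4a1 (0.90), Btg2 and Npas4, and for Ccn1 Egr1 (0.87), Btg2 and Junb. Dusp6 was most like Trib1 (0.88), Csrnp1 and Otud1. Dusp5 was most like Slc14a1 (0.88), which encodes a urea transporter, Filip1l and Irf2bp2, and Dusp4 was most like Irf2bp2 (0.83), Tiparp and Arid5a. Homer1 was most like Spred1 (0.86), Pdp1 and Rock2, and Nptx2 was most like Gpd1 (0.81) and the interneuron peptide gene Cort and the CRH-binding protein gene Crhbp.

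Other genes of the same pathways were described from lists chosen by function. Of 30 other activity-induced effector genes, 25 lay above 0 on the log2 scale with fluoxetine (median 0.12) and 26 with lithium (median 0.13), with 48.7% and 47.8% of all genes positive, and none was called by limma. The smallest p-values were those of Gadd45g (0.39, adjusted p = 0.337) and Ptgs2, the inducible cyclooxygenase (0.40, adjusted p = 0.381), under fluoxetine, and of the salt-inducible kinase Sik1 (0.47, adjusted p = 0.326) and Arl5b (0.22, adjusted p = 0.405) under lithium. Against WT vehicle, Sik1 (0.47, adjusted p = 0.0199) and Gadd45g (0.35, adjusted p = 0.0405) rose in HT fluoxetine, and Sik1 (0.59, adjusted p = 0.00325) and Arl5b (0.22, adjusted p = 0.0258) rose in HT lithium. Genes called higher were 1.24% of all genes for HT fluoxetine and 1.4% for HT lithium.

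Of 17 other MAPK feedback genes, 10 were positive under fluoxetine (median 0.05) and 9 under lithium (median 0.00), and none was called by limma. The ERK inhibitors Spred3 (0.14) and Spred2 (0.08) had the smallest p under fluoxetine, and Spred2 (-0.12) and the p38 and JNK phosphatase Dusp10 (0.17) under lithium. Dusp10 rose in HT lithium against WT vehicle, with 160 ± 7.87 normalized counts in HT lithium and 133 ± 10.1 in WT vehicle libraries (SD, n = 7 and 8; log2 fold change 0.28, adjusted p = 0.0175). Calls of higher genes there made up 1.4% of all genes.

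Of 27 ERK cascade genes, 14 were positive under fluoxetine (median 0.00) and 9 under lithium (median -0.02), and of 16 JNK and p38 cascade genes, 7 and 5 (medians -0.01 and -0.02), with none called by limma. The smallest p-values were those of the adaptor Shc1 (0.11) and Nras (-0.05), Map2k3 (0.07) and the JNK scaffold Mapk8ip1 (-0.04) under fluoxetine, and of Ksr2 (-0.13), Shc1 (0.20), Mapk12 (0.10) and Mapk8ip1 (-0.06) under lithium. In HT lithium against WT vehicle, Shc1 rose (0.30, adjusted p = 0.0484), and Rps6ka2, an ERK-activated kinase (-0.17, adjusted p = 0.0389), and Map3k5 (-0.27, adjusted p = 0.0473) fell. Of all genes, 1.4% were called higher and 0.577% lower there.

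Of 20 binding partners of Arc, Homer1 and Nptx2, 8 were positive under fluoxetine (median -0.01) and 6 under lithium (median -0.03), and of 17 upstream transcription factors and cofactors, 7 and 5 (medians -0.02 and -0.05), with none called by limma. The smallest p-values among the partners were those of the endophilin gene Sh3gl3 (-0.10) and Camk2b (-0.05) under fluoxetine, and of Shank3 (-0.12) and the metabotropic receptor Grm5 (-0.13) under lithium. Among the factors they were those of Crebbp (0.06) and Mrtfb (0.04) under fluoxetine, and of the CREB coactivator Crtc1 (-0.10) and Atf1 (0.14) under lithium. Crtc1 (-0.14, adjusted p = 0.0202) and Mrtfa (-0.17, adjusted p = 0.0463), a coactivator of serum response factor, fell in HT lithium against WT vehicle. In that comparison 0.577% of all genes were called lower. In the genotype comparison none of the 127 genes of the 6 lists was called by limma, beside 0.731% of all genes called in either direction. Outside the ERK cascade list, the smallest p of each list were those of Map3k5 (-0.21) and Mapk12 (0.14), Errfi1 (-0.12) and Dusp16 (0.10), Bdnf (-0.26) and Ptgs2 (-0.16), Nptxr (-0.16) and Gria3 (-0.12), and Crem (0.13) and Elk1 (-0.05), as log2 fold changes of HT vehicle against WT vehicle.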

How the data were processed

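The 30 bulk RNA libraries (TruSeq Stranded mRNA, per the labels' protocols) were grouped by genotype, treatment and sex from their titles; the labels give 1 batch. The authors deposited 1 table of 18240 genes holding a normalized signal, read counts per gene after division by the library's size factor. Build GRCm38, DESeq2 1.19.11, R 3.6.0 and Salmon 0.11.2 are named in the submitters' processing notes; annotation, filters and strand handling are not stated there. All values of a column were whole multiples of its step, so reads were recovered (100% whole within 0.01); in 2 columns the step lay within 0.5% of 1. Depth was 23771758 to 34307061 reads. The 42 replicate pairs differed by more than sampling noise (chi-square 4.57 to 30.1 per degree of freedom), so each library was counted once. Symbols came from GENCODE M21 (18227 matched, 13 did not).

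Tests used limma 3.58.1 (trend, robust) in R 4.3.3 on log2(normalized count + 1), with 16824 genes whose mean reached 10, 8 group means, 22 residual degrees of freedom and Benjamini-Hochberg adjustment over those genes. Such fold changes understate the change of low genes. Alternatives were edgeR 4.0.16 and DESeq2 1.42.0 on recovered reads, other filters and pseudocounts, a replicate block, fits of only the groups compared, and leaving out libraries. HT vehicle and WT vehicle males with the same number correlated in their deviations in all 3 pairs (0.17 to 0.278), as did HT vehicle males and WT vehicle females (0.103 to 0.449); the block changed no call of the 10 genes in the genotype comparison. Counts were simulated for the lithium comparison over 16824 genes, with 100 genes changed at each size. Of genes changed by a log2 fold change of 1, 96% were recovered, and 75% of those changed by 0.5. Genes were drawn independently, without differences in tissue content shared between genes, and limma called 15 genes in the real comparison. These shares therefore need not hold for the real libraries.

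The members, lists, markers and tests were chosen with earlier results of these data known. Named genes are the 10 members and the 3 non-member genes most like each member, genes with predicted names left out. From each list, for the comparisons over both sexes, they are the called genes (at most 6 by smallest p). Where none was called, they are the 2 with the smallest p. For 1 list in the genotype comparison, the genes that rule gives are not reported here.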

Additional observations from a re-analysis of the deposited data

Results flagged for a closer look

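Within groups of 4 libraries, 60 combinations of a gene and a group were examined for a library standing apart by Dixon's criterion. In all, 7 were found, where chance gives about 1 in 20 for each combination. Several of the genes followed each other across libraries, so the combinations are not independent and the 7 are listed without a test of their number. Arc in HT fluoxetine female 3 was 11649 normalized counts, above the other 3 libraries of its group at 8439 to 8939, and Dusp6 in the same library was 2924, above the others at 2101 to 2209. Dusp6 in HT lithium male 4 was 2183, below the others at 3070 to 3124. Dusp6 in WT vehicle female 3 was 2339, above the others at 2135 to 2153, and Gadd45b in that library was 465.5, above the others at 415.9 to 423.3. Gadd45b in HT fluoxetine male 2 was 536.6, above the others at 421.6 to 433.4. Dusp4 in HT fluoxetine male 1 was 317.9, above the others at 219.5 to 234.9.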

How the results depend on the processing

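Of 660 values recomputed under the alternatives other than omission of 1 library, 633 kept their direction and side of the threshold, 14 became called and 3 lost their call or fell in count. The number of the 10 genes called for fluoxetine was 0 by limma, but 3 by DESeq2, 2 with only the compared groups in the fit (Arc and Dusp1), and 1 (Dusp1) with a mean of at least 50, with the replicate block or with the block by library number. For fluoxetine in males DESeq2 called 1 and the fit of only the compared groups 2. For lithium the fit of only the compared groups called 1 (Ier2) of the 3, and for lithium in males DESeq2 called 4. The cause was not tested. The shares of all genes called under these alternatives are not given here. Deviations of HT vehicle males and WT vehicle males with the same replicate number correlated positively in all 3 pairs. So did those of HT vehicle males and, across sex, WT vehicle females (0.103 to 0.449), and of no other 2 groups. With 3 pairs in each and many groups compared, this does not show a pairing, and the labels give none. The block changed no other call of the 10. With 1 library left out, the count was 0 to 2 for fluoxetine (2 without HT fluoxetine female 1, 1 without HT fluoxetine male 1), 2 to 3 for lithium, 1 to 4 for HT fluoxetine and 3 to 5 for HT lithium against WT vehicle. It was 1 to 3 for lithium in males, and 1 without HT lithium male 2 or 3 or HT vehicle male 1, 2 or 3, where Ier2 was lost. Directions turned only in values that were not called. The largest of these was that of Ccn1 for fluoxetine minus lithium, at -0.14 with all libraries and 0.027 without HT lithium female 1. The genotype difference of Arc was -9.97e-05 with median-of-ratios size factors in edgeR, -0.018 with the replicate block and -0.021 with the block by library number. Without both libraries of highest olfactory bulb sum, genotype values were -0.013 for Dusp4, -0.047 for Dusp5, 0.0090 for Dusp6 and -0.017 for Ier2. Fluoxetine minus lithium was 0.019 for Arc and 0.0086 for Dusp6 with the replicate block, and lithium was 0.0084 for Nptx2 with the block by library number. With 1 library left out, log2 ranges that crossed 0 were, for genotype, -0.029 to 0.044 for Arc, -0.013 to 0.10 for Dusp4, -0.047 to 0.14 for Dusp5, -0.029 to 0.020 for Dusp6, -0.086 to 0.026 for Homer1 and -0.020 to 0.072 for Ier2. For fluoxetine minus lithium they were -0.071 to 0.13 for Arc, -0.28 to 0.027 for Ccn1, -0.13 to 0.022 for Dusp4, -0.25 to 0.018 for Dusp5 and -0.078 to 0.059 for Dusp6. For lithium they were -0.14 to 0.033 for Homer1 and -0.058 to 0.043 for Nptx2, and for HT lithium against WT vehicle -0.17 to 0.0029 for Homer1. At a depth of 23771758 reads or more, the lowest normalized count of the 10 genes in any library was 134, of Ccn1.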
